A study of Mus musculus with 17 samples.

Results

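The cytosolic ribosomal proteins are the protein subunits of the ribosome that works in the cytoplasm. Members were chosen by gene symbol alone: Rpl or Rps followed by a number, with the lettered and like-named copies, together with Rplp0, Rplp1, Rplp2 and Rpsa. No measured value entered the choice. Of 17097 genes with a probe set of their own, 70 were members, 45 of the large 60S subunit and 25 of the small 40S subunit.

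The cells came from male NOD mice, a strain whose lacrimal gland is invaded by lymphocytes and which serves as a model of Sjögren's syndrome. Lacrimal glands of 16-week-old mice gave 4 arrays of B cells, 4 of CD4 T cells and 3 of epithelial cells, and spleens gave the same lymphocytes (3 arrays of each) meant as a steady-state reference. The age of the spleen donors reads 16 weeks in the labels of the samples but 4 weeks in the description of the series, so tissue and age cannot be told apart with certainty. The labels name no transgene and no treatment. Epithelial cells were sorted as CD45- CD326+, CD4 T cells as CD45+ CD3+ CD4+ and B cells as CD45+ B220+ CD3-, with NK and myeloid cells gated out of both lymphocyte sorts, to a stated purity above 99%. Gland tissue was digested with enzymes before the sort, and the labels state no digestion for spleen. The labels do not say that the arrays of a group came from separate animals, so the spread that p-values measure may be technical.

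Each ribosome carries nearly the same set of proteins, and cells hold the messages for these proteins at matching, very high levels. In mammals most of these messages begin at a C followed by a run of pyrimidines, the 5′ terminal oligopyrimidine or TOP motif, through which the kinase mTORC1 and the RNA-binding protein Larp1 control their translation together. A few members have a paralog with its own pattern of expression, and some free ribosomal proteins bind the ubiquitin ligase Mdm2 and so act on p53 when ribosome assembly fails.

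RefSeq start windows (mouse build GRCm38.p6) were found for 56 of the 70 members, 67 windows in all. A run of at least 8 C or T on the gene's strand, within 50 bases of an annotated start, was present in 79.1% of the member windows and in 35.7% of all 32851 windows. Runs were cut at that limit. The following 30-base stretches, 5′ to 3′ on the strand of the gene, come from members that the results below turn on. Capitals mark the longest run within 50 bases of the start. In Rplp0 the longest run is 7, so its window does not hold the feature. In Rpsa, the member with the largest negative difference, the part of the run within the limit is also 7. The Rpsa run goes on upstream, in the small letters directly before the capitals, and as a whole is longer than 8. Rpsa was thus counted as without the feature because of the cut. The others below hold the feature. Rpsa, Rplp0, Rpl13a, Rps9, Rps10 and Rplp2 were lower in epithelium, Rps25 and Rpl7a were among the members nearest to no difference, and Rps27l was higher.
Rpsa, chr9:120127704-120127733, plus strand: gcggaagttctcCCTTTTTgcttagcctgc
Rplp0, chr5:115559466-115559495, plus strand: aggaccgcctggTTCTCCTataaaaggcac
Rpl13a, chr7:45128722-45128751, minus strand: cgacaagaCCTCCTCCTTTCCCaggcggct
Rps9, chr7:3704024-3704053, plus strand: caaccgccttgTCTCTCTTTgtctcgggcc
Rps10, chr17:27635227-27635256, minus strand: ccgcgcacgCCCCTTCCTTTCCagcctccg
Rplp2, chr7:141447636-141447665, plus strand: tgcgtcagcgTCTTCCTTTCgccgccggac
Rps25, chr9:44407684-44407713, plus strand: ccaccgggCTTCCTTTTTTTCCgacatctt
Rpl7a, chr2:26910788-26910817, plus strand: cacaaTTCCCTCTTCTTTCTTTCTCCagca
Rps27l, chr9:66946053-66946082, plus strand: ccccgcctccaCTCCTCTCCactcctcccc

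Other words were counted on both strands of the window from 250 bases before to 50 bases after each start. CCGGAAG, a core recognised by ETS factors, was in 38.8% of member windows and 8.9% of all windows. AAGATGG, a core of YY1 sites, was in 16.4% against 6.3%, GGGCGG in 59.7% against 35.7%, and TATAAA in 10.4% against 13.6%. Windows of 1 gene can overlap, so these shares are a description.

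Values are log2 array signals, so a difference of 1 is a 2-fold change. Arrays of 1 group correlated at 0.976 to 0.996 over all genes, and the lineage markers followed the sort labels, with exceptions of which those of the gland arrays are given here and those between gland and spleen beside that comparison. Replicate 1 of the epithelium carried leukocyte signal: the mean of 3 leukocyte genes was 9.20 there against 3.65 and 4.10 in the other epithelial arrays, and Ptprc, which encodes CD45, was at 9.62 against 2.42 and 2.36. Gland lymphocytes carried epithelial signal: the mean of 7 lacrimal epithelial genes was 7.23 to 7.61 in them and 4.01 to 4.58 in spleen lymphocytes. Epithelial arrays also held markers of myoepithelium (mean of 5 genes 8.26 to 8.59), endothelium (4 genes, 7.73 to 8.38) and red cells (2 genes, 8.88 to 9.23). All of these are levels on the log2 scale. In bulk samples fewer cells of a type and less RNA per cell cannot be told apart.

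The ribosomal protein messages were among the brightest of the array in every cell type. Mean levels over the 17 arrays were at least 11 for 63 of 70 members, where the highest value of the whole table was 12.9. Rpl41, a tiny basic 60S protein, had the highest mean at 12.57. It was followed by Rps6, the 40S protein phosphorylated by S6 kinases, at 12.48 and by the stalk protein Rplp2 at 12.29. The remaining 7 members were dimmer: Rpl22l1 had a mean level of 10.3, Rps27l of 9.53, Rpl7l1 of 8.90, Rpl14 of 7.55, Rps15a of 5.66, Rpl39l of 4.24 and Rpl3l of 3.81. Of those 7, 5 are paralogs, and Rpl3l and Rpl39l, known from muscle and from testis, lay below 4.71, the median of all values. The files give no detection calls, so neither is shown to be above background, and a level compared between genes also carries the brightness of the probes.

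**Figure D1:**
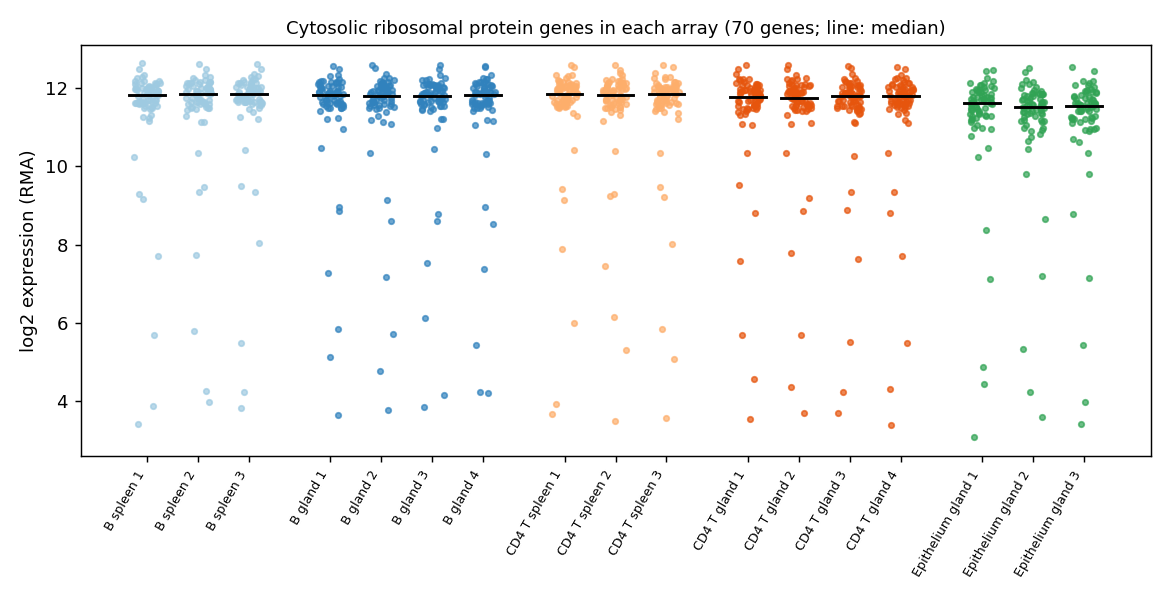
Log2 levels of the 70 members on each of the 17 arrays, grouped by cell type and tissue, with the median of the members marked for each array. Medians lie between 11.74 and 11.86 in all lymphocyte arrays and at 11.62, 11.52 and 11.54 in the 3 epithelial arrays.

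The median over members was nearly flat across lymphocytes and lower in epithelium. In the 14 lymphocyte arrays it ran from 11.74 to 11.86. In the 3 epithelial arrays it was 11.62, 11.52 and 11.54, so the groups did not overlap, and replicate 1, the array with leukocyte signal, was the highest of them. The number of members at a level of at least 11 was 62 or 63 in each lymphocyte array and 59, 56 and 56 in the epithelial arrays.

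Epithelium was compared with the average of both gland lymphocyte types, which asks how ribosomal protein messages differ between the target tissue and the cells that invade it. At an adjusted p under 0.05 (limma, Benjamini-Hochberg over 17097 genes) 48 of 70 members were lower in epithelium, 2 were higher and 20 did not pass. That is 68.6% lower, where 36.9% of all genes were lower and 27.9% higher. The differences were small: the median over members was -0.21 against -0.10 over all genes, and with a 2-fold minimum 0 members were lower and 1 higher, where 10.3% and 15.2% of all genes were. Members that passed as lower ran from -0.13 to -0.84, and 6 of them fell by at least 0.5.

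That count depended on the scaling of the arrays. With arrays centred on 3183 other genes at levels of 8.16 to 12.2, 24 members were lower and 12 higher, where 23.1% and 37.3% of all genes were. The median over members was then -0.02, against 0.09 over all genes. That band spans the 5th to the 95th percentile of the members' levels, but 86 of its genes alone were at 11 or above, where 63 of the 70 members lie. Centring the arrays on those 86 genes, a setting chosen after seeing the data, left 39 members lower and 2 higher, at a median of -0.16. Of all genes 31.8% were lower and 29.5% higher in that setting. With arrays centred on their medians, 68 were lower and 1 higher, where 64.7% and 20.7% of all genes were. The median was then -0.53 against -0.42 over all genes. The sizes below are therefore relative to the deposited scale. Among the other 86 genes with a mean level of at least 11, 41 were lower and 24 higher in epithelium at a median of -0.10, while 44 of the 63 members in that class were lower and 1 was higher. The count of lower members was 49 without epithelial replicate 1, the array with leukocyte signal, 42 without replicate 2 and 41 without replicate 3.

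All 48 lower members had an epithelial mean below both gland lymphocyte means, and for 42 of them every epithelial array lay below all 8 gland lymphocyte arrays. In all, 46 members had such a gap downward, where 23.2% of all genes did, and 2 had one upward, where 21.5% did. The mean of 63 members was lower in epithelium than in each of the 4 lymphocyte groups, spleen included. The share of all genes with that order is not given here, so the count has no background. In the 40S subunit 17 of 25 members were lower and 1 was higher, with a median of -0.27. In the 60S subunit 31 of 45 were lower and 1 was higher, with a median of -0.18.

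**Figure D2:**
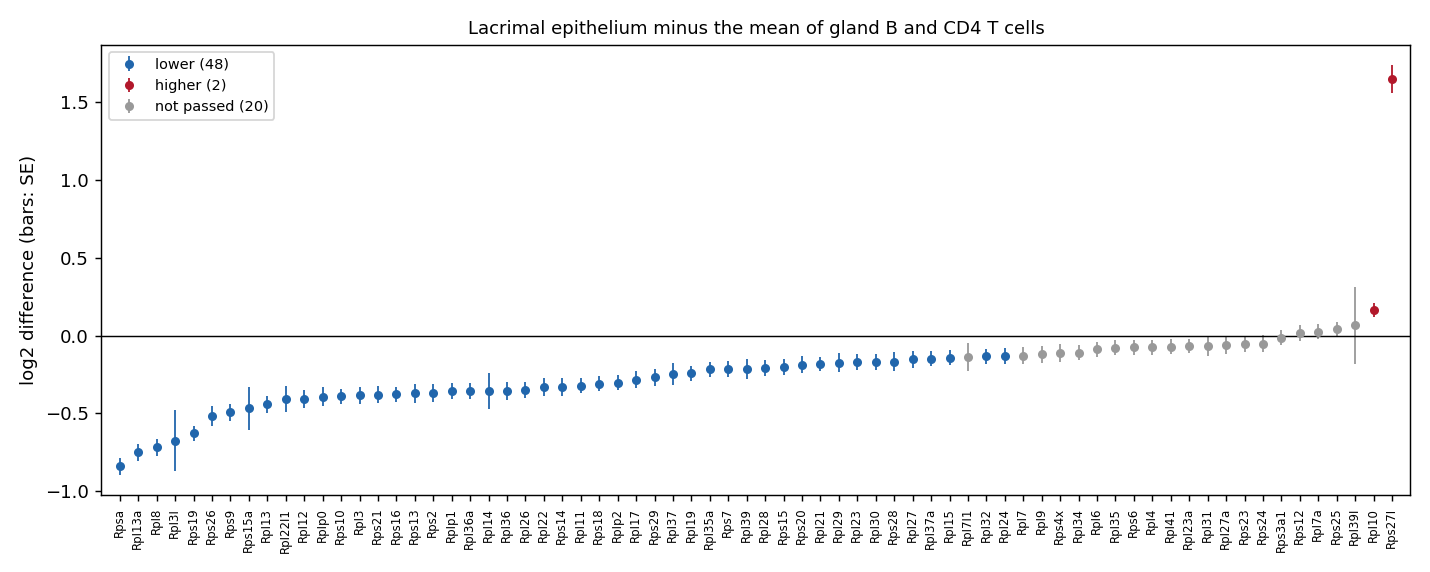
Log2 difference of epithelium from the average of both gland lymphocyte types for each of the 70 members, with bars for the standard error of the model and members marked by call. The points run from -0.84 for Rpsa to 1.65 for Rps27l, with 48 members lower, 2 higher and 20 not passed.

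Rpsa, a 40S protein at the mRNA path that is also known as a laminin receptor, had the most negative difference. Its levels in epithelium were 11.47, 11.34 and 11.30, against 12.16, 12.21, 12.11 and 12.23 in gland B cells and 12.21, 12.26, 12.23 and 12.26 in gland CD4 T cells. Every epithelial array was below every lymphocyte array, with a gap larger than the range within any group. The difference was -0.84 (SE 0.05, limma adjusted p = 1.29e-09), and spleen B and CD4 T cells stood at 12.22 ± 0.02 and 12.26 ± 0.02 (SD, n = 3 each).

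Rpl13a, a 60S protein that in myeloid cells also joins a complex repressing translation after interferon gamma, showed the same order. Its levels were 11.07, 10.89 and 10.91 in epithelium, 11.77, 11.74, 11.70 and 11.76 in gland B cells and 11.67, 11.67, 11.66 and 11.66 in gland CD4 T cells. The 3 epithelial arrays lay below all the others, at a difference of -0.75 (SE 0.05, limma adjusted p = 4.21e-09). Rpl8, which lies near the peptidyl transferase centre, was at 10.47, 10.45 and 10.34 in epithelium and at 11.08 to 11.22 in the 8 gland lymphocyte arrays. It too did not overlap, with a difference of -0.72 (SE 0.05, limma adjusted p = 6.42e-09).

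Proteins of the 40S decoding centre, head and mRNA path were measured for 9 members, of which 7 passed as lower and none as higher. The background for this and the following role groups is 68.6% of all members and 36.9% of all genes lower, and no group was tested against it. Beside Rpsa these included Rps26, which lines the mRNA exit, at -0.52, and Rps9, which affects decoding accuracy, at -0.49. Rps2, at the mRNA entry, was at -0.37. Rps3a1 at -0.01 (adjusted p = 0.819) and Rps23 at -0.06 (adjusted p = 0.31) did not pass.

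The acidic stalk of the 60S subunit, which recruits the GTPase factors of translation, was lower in all 3 of its proteins. Rplp0, the base of the stalk, was at 10.77, 10.65 and 10.62 in epithelium and between 10.96 and 11.19 in the gland lymphocytes. The groups did not overlap, at a difference of -0.39 (SE 0.06, limma adjusted p = 2.13e-05). Rplp1 differed by -0.36 and Rplp2 by -0.30, and Rplp2 no longer passed with arrays centred on the 3183 genes, most of them dimmer than it (-0.11, adjusted p = 0.0619).

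Of 8 proteins of the polypeptide tunnel and its exit rim, 4 passed as lower. Rpl26 was at -0.35, Rpl17 at -0.28, Rpl19 at -0.24 and Rpl39, a small protein inside the tunnel, at -0.21. With arrays centred on the 3183 genes Rpl17 (-0.09, adjusted p = 0.158), Rpl19 (-0.05, adjusted p = 0.413) and Rpl39 (-0.02, adjusted p = 0.784) did not pass, and Rpl39 also did not without epithelial replicate 3 (adjusted p = 0.0601). Rpl11 and Rpl23, which bind Mdm2, were lower, at -0.32 and -0.17. The smaller of these was 0.02 (adjusted p = 0.707) with arrays centred on the 3183 genes, a turn of its sign. It did not pass with centring on the 86 bright genes (-0.12, adjusted p = 0.0704) or without epithelial replicate 2 (adjusted p = 0.0632).

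Genes mutated in Diamond-Blackfan anaemia, an inherited failure of red cell production, numbered 14 among the measured members, and 11 of them were lower in epithelium. Rps19, the one most often mutated, was at 10.97, 10.99 and 10.94 in epithelium and at 11.54 to 11.64 in the gland lymphocytes. Its groups did not overlap, at a difference of -0.63 (SE 0.05, limma adjusted p = 9.98e-09). Rps26, also counted above, and Rps10 at -0.39 were lower too, while Rps24 at -0.05 (adjusted p = 0.44) did not pass.

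The members nearest to no difference were Rps3a1 at -0.01, Rps12 at 0.02, Rpl7a at 0.03 and Rps25 at 0.04. Rps25, which certain viral and cellular internal ribosome entry sites require, was at 12.07, 12.10 and 12.08 in epithelium and between 12.003 and 12.10 in the gland lymphocytes, so the groups overlapped. Rps6 at -0.07 (adjusted p = 0.189) and Rpl41 at -0.07 (adjusted p = 0.211), the brightest members, did not pass either. Their dimmer probe sets differed (limma over all probe sets). Rpl41 sets at mean levels of 10.02 and 9.55 were higher in epithelium, by 0.55 and 0.69 (adjusted p = 1.63e-05 and 1.77e-05). Its set at 11.53 was at 0.05 and did not pass. An Rps6 set at 8.83 was lower, at -0.27 (adjusted p = 0.0213), and one at 3.45 did not pass. Over the start windows the pyrimidine run was present in 77.3% of those of lower members and in 82.6% of those of the other members.

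Rps27l was the exception among the members. It encodes a paralog of Rps27 whose gene is induced by p53. Its levels were 10.97, 10.75 and 10.69 in epithelium, 8.96, 9.14, 8.79 and 8.95 in gland B cells and 9.52, 9.19, 9.34 and 9.35 in gland CD4 T cells. All 3 epithelial arrays were above every lymphocyte array of gland and spleen. The difference was 1.65 (SE 0.09, limma adjusted p = 1.67e-10), which is 3.13-fold, and its 3 probe sets gave 1.59 to 1.80. Over the 5 groups the order of mean levels was epithelium at 10.80, spleen CD4 T cells at 9.39, spleen B cells at 9.38, gland CD4 T cells at 9.35 and gland B cells at 8.96, where the 3 middle groups differed by less than the SD of any of them. This gene had the largest SD of group means of all members, 0.709. Rps27 itself was not analysed here.

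Rpl10, an X-linked 60S protein added late in assembly, was the other member that passed as higher, by 0.17 (SE 0.05, limma adjusted p = 0.00536). Its levels were 12.18, 12.15 and 12.18 in epithelium and 11.98 to 12.04 in the gland lymphocytes. The groups did not overlap on the deposited scale, but with arrays centred on their medians its difference was -0.15 (adjusted p = 0.023).

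**Figure D3:**
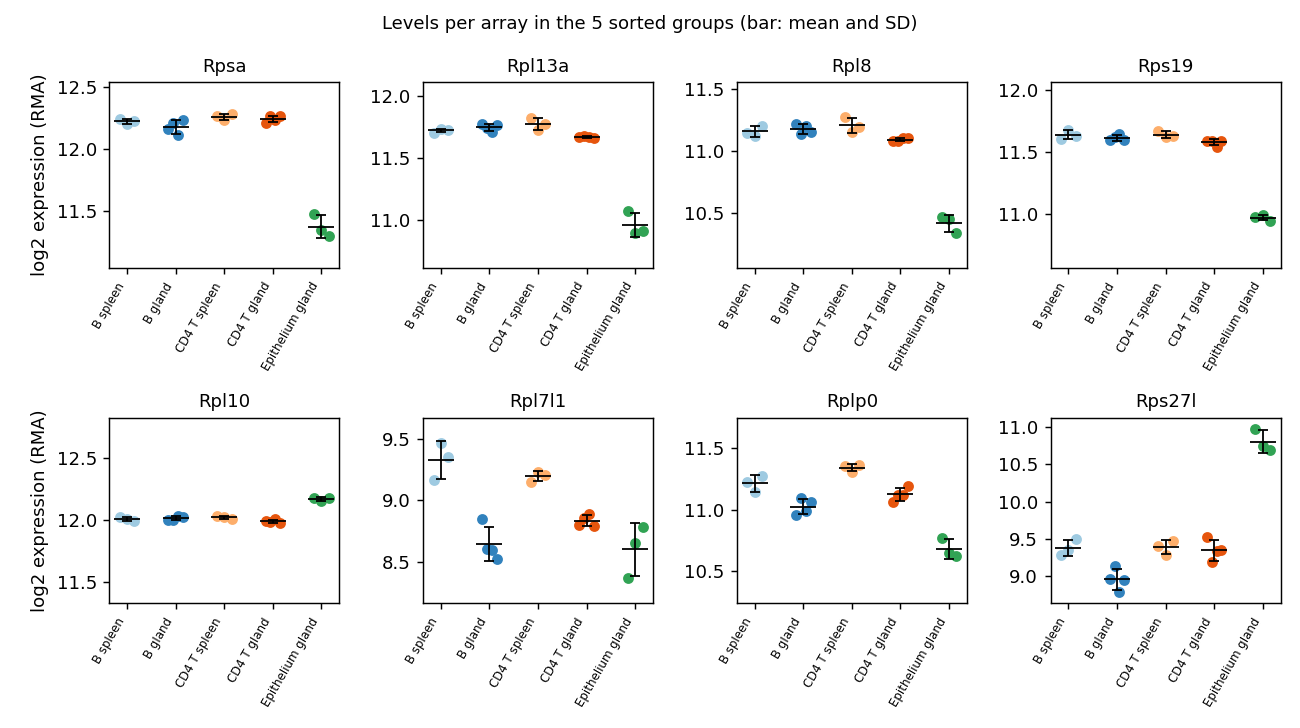
Log2 levels by array of the members described most closely, with a line at each group mean. Rps27l is above every lymphocyte array in all 3 epithelial arrays, at 10.69 to 10.97, and Rpsa and Rpl13a are below every lymphocyte array.

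On their brightest probe sets the other paralogs did not move as Rps27l did. Rpl22l1 was lower in epithelium, at -0.41 (adjusted p = 0.00052), beside -0.33 for its parent Rpl22, which forms part of the 60S surface. With the mean of its probe sets Rpl22 was at 0.14 (adjusted p = 0.0666), the opposite sign. Rpl7l1 at -0.14 (adjusted p = 0.198) and Rpl7 at -0.13 (adjusted p = 0.0553) did not pass, nor did Rpl39l at 0.07 (adjusted p = 0.823). The dimmer probe sets of Rpl7l1 disagreed. A set at a mean level of 7.38 was higher in epithelium by 0.40 (limma over all probe sets, adjusted p = 0.000151). Another, at 3.58, was lower, at -0.42 (adjusted p = 0.00834). Rpl3l was at -0.67 (adjusted p = 0.00661), but all 3 of its epithelial arrays were at 3.58 or less, under the median of all values, and its parent Rpl3 was at -0.38. Rps15a also passed, at -0.47 (adjusted p = 0.00753), but not without epithelial replicate 1 (adjusted p = 0.0817).

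On the brightest probe set of each member, gland and spleen B cells differed little in these messages, although many other genes differed. Against spleen, 3 of 70 members were lower in gland B cells and 0 were higher (limma), which is 4.29% of them, where 9.87% of all genes were lower and 7.79% higher; 6 members had an unadjusted p under 0.05. No member passed with a 2-fold minimum, where 1.6% of all genes were lower and 2.58% higher. The median over members was -0.02 and over all genes 0.00. The 95% interval of the difference lay within 1.2-fold either way for 62 members and excluded a 2-fold difference for 69. These intervals are for the brightest probe sets, most of which lie near the upper end of the array's range. Some dimmer sets of the same genes differed more and others did not pass, as given below. Whether the range limits the sizes was not tested. All arrays of gland lay below all arrays of spleen for 11 members, and above for 1, where 16.1% and 14.5% of all genes did so.

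The 3 lower members in B cells were all among the dimmer ones. Rpl7l1, an Rpl7-like protein with a role in building the large subunit, was at 8.85, 8.61, 8.60 and 8.53 in gland B cells and at 9.17, 9.47 and 9.35 in spleen B cells. The groups did not overlap, at a difference of -0.68 (SE 0.10, limma adjusted p = 0.000265). Rpl14 was at 7.28, 7.17, 7.52 and 7.39 in gland and at 7.70, 7.74 and 8.04 in spleen, a difference of -0.49 (adjusted p = 0.0141). Rps27l was at 9.28, 9.35 and 9.50 in spleen, above all the gland B cell arrays, a difference of -0.42 (adjusted p = 0.00958). Without spleen B cell replicate 3, 1 member was lower: Rpl14 had an adjusted p of 0.0873 and Rps27l one of 0.0571.

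In CD4 T cells 3 of 70 members were lower in gland and 0 were higher (limma), where 10.7% of all genes were lower and 12.7% higher. These were Rpl7l1, Rplp0 and Rps10, and none passed with a 2-fold minimum, where 1.62% of all genes were lower and 5.35% higher. The median over members was -0.06 and over all genes -0.03. For 66 of 70 members the difference was below 0. The median over all genes was also below 0, which shows that most genes were, but not how many. The share of all genes below 0 is not given here, so the count of members has no background. All gland arrays lay below all spleen arrays for 25 members and above for 0, where 17.7% and 16.8% of all genes did so. On the brightest probe sets the 95% interval lay within 1.2-fold for 56 members. With arrays centred on their medians, which moved the median of all genes to -0.19, 56 members were lower, where 28.3% of all genes were. This count therefore depends on the scale.

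Rpl7l1 was at 8.80, 8.85, 8.89 and 8.80 in gland CD4 T cells and at 9.15, 9.23 and 9.20 in spleen, with no overlap, a difference of -0.36 (SE 0.10, limma adjusted p = 0.0175). Rplp0 was at 11.06, 11.12, 11.12 and 11.19 in gland and at 11.35, 11.31 and 11.36 in spleen, a difference of -0.22 (adjusted p = 0.0244). Rps10, a 40S protein ubiquitinated when ribosomes collide, was at 11.76, 11.74, 11.81 and 11.77 in gland and at 11.97, 11.97 and 11.91 in spleen, a difference of -0.18 (adjusted p = 0.0231). For each of these genes all gland arrays were below all spleen arrays. Each of the 3 calls was lost when certain single arrays were left out. Rpl7l1 was lost without spleen CD4 T cell replicate 2 (adjusted p = 0.0627) or 3 (0.0533), and with the mean of its probe sets (-0.12, adjusted p = 0.338). Rplp0 was lost without gland CD4 T cell replicate 1 (0.0665) or 3 (0.051) and without spleen replicate 1 (0.0723) or 3 (0.08). Rps10 was lost without gland replicate 1 or 2 (0.0503 each) and without spleen replicate 1 (0.0806) or 2 (0.0729).

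**Figure D4:**
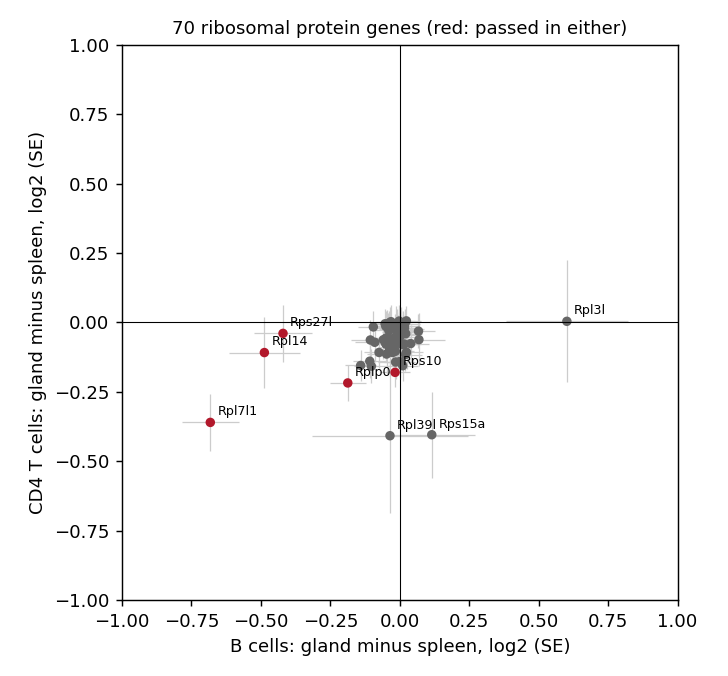
Log2 difference of gland from spleen for each member, with B cells on one axis and CD4 T cells on the other. Most points lie near 0, at medians of -0.02 and -0.06, and Rpl7l1 stands apart at -0.68 and -0.36.

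Rpl7l1 passed as lower in both lymphocyte types on its brightest probe set. A second, at a mean level of 7.38, was at -0.12 (adjusted p = 0.375) in B cells and -0.15 (adjusted p = 0.247) in CD4 T cells, and a dim one at 3.58 passed in neither. With the mean of the probe sets the B cell call held, at -0.25 (adjusted p = 0.0376), and the CD4 T cell call did not. Tested directly, the gland against spleen difference in CD4 T cells minus that in B cells passed for 0 of 70 members in either direction (limma), where 6.55% of all genes were higher and 3.57% lower. At an unadjusted p under 0.05, 2 members were higher and 3 lower, and the median over members was -0.03. With a 2-fold minimum 3.87% of all genes were higher and 1.22% lower. The 95% interval of this difference lay within 1.2-fold for 49 members and excluded 2-fold for 68.

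Immediate early genes, which cells switch on within minutes of stimulation or handling, moved with the tissue: the mean of 16 such genes was 9.10 to 9.67 in all gland arrays and 6.25 to 6.86 in spleen arrays. Epithelial genes moved with it too, as given above, and Obp1a, an abundant secretory product of the gland, was at 11.01 to 11.47 in gland lymphocytes and 2.46 to 4.81 in spleen lymphocytes. Plasma cell genes (3 measured) were at 8.37 to 8.81 in gland CD4 T cells and 5.90 to 6.80 in spleen CD4 T cells, and all 3 were higher at a median of 2.33. In B cells their mean went the other way, at 7.52 to 7.88 in gland and 8.30 to 8.63 in spleen. Cell division genes were lower in gland B cells for 12 of 13, at a median of -1.19, and the 2 red cell genes were lower in gland in both lymphocyte types, at medians of -1.49 and -1.74. The part of any of these in the gland against spleen values of the members was not tested.

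Within a tissue, B and CD4 T lymphocytes had nearly the same levels of ribosomal protein messages on the brightest probe sets. In the gland 1 member was higher in B cells and 2 were lower (limma), where 14.3% of all genes were higher and 16.1% lower. With a 2-fold minimum no member passed, where 3.73% of all genes were higher and 5.97% lower, and the 95% interval lay within 1.2-fold for 64 members. The higher one was Rpl3l, at 5.13, 4.76, 3.84 and 4.24 in B cells and at 3.55, 3.68, 3.68 and 3.38 in CD4 T cells. The difference was 0.92 (SE 0.20, limma adjusted p = 0.00241), but 2 B cell arrays alone were above the median of all values. Rps27l was lower in B cells, at -0.39 (adjusted p = 0.00481). Rpl14 was lower, at -0.34 (adjusted p = 0.039), and it did not pass without gland B cell replicate 1, 2 or 4 (0.0865, 0.116 and 0.0582) or gland CD4 T cell replicate 2, 3 or 4 (0.0952, 0.062 and 0.0807), or with centring on the 86 bright genes (-0.30, adjusted p = 0.0635). With arrays centred on their medians 19 members were higher and 1 was lower, where 27.4% of all genes were higher and 12.8% lower.

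In the spleen 1 member, Rps16, a 40S protein near the decoding centre, was lower in B cells and 0 were higher (limma), where 11.3% of all genes were lower and 11.1% higher. With a 2-fold minimum it did not pass, where 4.52% of all genes were lower and 4.63% higher. Its levels were 11.63, 11.65 and 11.67 in B cells and 11.85, 11.83 and 11.78 in CD4 T cells. The arrays did not overlap, at -0.17 (SE 0.06, adjusted p = 0.0456), but the adjusted p was 0.0623 to 0.133 when any 1 of the 6 arrays was left out and 0.0775 with centring on the 86 bright genes. Without CD4 T cell replicate 1 the difference was -0.16, and without replicate 3 it was -0.19.

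Of the 70 members 34 had more than 1 probe set, and dimmer probe sets of a gene often differed from its brightest. Over all 133 member probe sets epithelium lay below all gland lymphocyte arrays for 79 and above for 12, where 23.9% and 20.1% of all single-gene probe sets did. Among the 91 probe sets with a mean level of at least 11, 62 were lower in this way and 2 higher, at a median difference of -0.19, where 53.2% and 13.3% of all 188 probe sets of that level, members included, did. Among the 14 at levels from 8 to 11, 4 were lower and 8 higher, at a median of 0.62, where 39.7% and 19.7% of all 4423 did. The 17 at levels from 5 to 8 had a median of -0.36 and the 11 under 5 one of -0.32.

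Rpl31, a protein at the rim of the tunnel exit, showed the widest disagreement. Its brightest probe set, at a mean level of 11.88, differed by -0.07 in epithelium, another at 8.23 by 1.12 and the dimmest at 5.31 by -1.76. Rpl13, a 60S protein, differed by -0.44 on its brightest probe set and by 2.29 on another at a level of 8.50. Rpl11 and Rps13 kept their sign: the bright sets were at -0.32 and -0.37 and the dimmer ones, at 7.03 and 9.13, were at -1.47 and -1.31. Which probe set stands for the whole message was not tested, and the probe sequences were not used here.

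**Figure D5:**
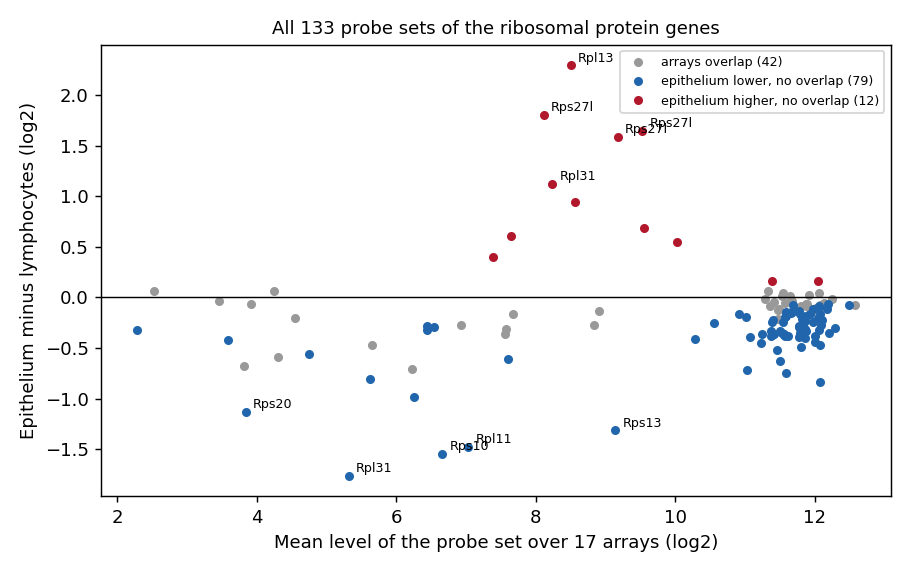
Log2 difference of epithelium from gland lymphocytes for the 133 member probe sets against their mean log2 level. Probe sets with levels of at least 11 cluster near their median of -0.19, while those at lower levels spread from -1.76 to 2.29.

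Fitted over all 28898 single-gene probe sets, 7 member probe sets were lower and 3 higher in gland than spleen B cells, where 8.54% and 7.62% of all probe sets were (limma). In CD4 T cells 6 were lower and 2 higher, where 10.7% and 12.2% were, and in epithelium 84 were lower and 12 higher, where 37.8% and 26.5% were. Single dim probe sets of Rps24 and Rps10 and a pair of Rps20, singled out after their values were seen, passed in both cell types. Each moved the same way in B and CD4 T cells, although the bright sets of Rps20 and Rps24 did not pass. Dimmer sets of Rpl31 passed in 1 cell type each. A set at a mean level of 5.31 was higher by 0.57 in gland B cells (adjusted p = 0.012), a call lost when 2 of the 7 arrays were left out in turn (adjusted p up to 0.0672). The other, at 8.23, was at -0.51 in gland CD4 T cells (adjusted p = 0.00807). A probe set of Rps20, a 40S protein of the mRNA entry that is ubiquitinated on stalled ribosomes, was at 6.85, 6.98, 7.19 and 6.80 in gland B cells and at 6.21, 5.88 and 5.85 in spleen B cells. In CD4 T cells it was at 6.71, 6.44, 6.38 and 6.80 in gland and at 5.35, 5.81 and 5.76 in spleen. Gland was above spleen in every array of each cell type, by 0.98 (limma adjusted p = 0.000357) and 0.94 (adjusted p = 0.000232). The brightest probe set of Rps20, at 11.5 to 11.8 in these arrays, did not pass in either.

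For Rps24, a 40S protein with several splice forms, a probe set was at 6.58, 7.05, 6.69 and 6.68 in gland B cells and at 7.52, 7.48 and 7.48 in spleen B cells. In CD4 T cells it was at 6.63, 6.45, 6.42 and 6.88 in gland and at 7.39, 7.62 and 7.66 in spleen. Gland was below spleen in every array of each cell type, by -0.74 (limma adjusted p = 0.000664) and -0.96 (adjusted p = 2.97e-05), and epithelium stood at 6.28, 6.48 and 6.44. Another dim set of Rps24, at 3.91, was at 0.05 and -0.02 and passed in neither. These calls for Rps20 and Rps24 were kept in both cell types when any 1 array was left out, with adjusted p up to 0.00454. The dim probe set of Rps10 was lower, at -0.89 (adjusted p = 0.0158) in B cells and -0.94 (adjusted p = 0.00783) in CD4 T cells, and the B cell call was lost without 1 array (adjusted p = 0.0833).

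Genes that work with the ribosomal proteins were counted from lists. The mitochondrial ribosomal proteins, which build the separate ribosome of the mitochondrion, were measured for 73 genes. In gland against spleen B cells 32 of them were lower and 0 higher, where 9.87% and 7.79% of all genes were, at a median of -0.35, with Mrpl43 at -1.05 (adjusted p = 0.000219). In CD4 T cells 19 were lower and 2 higher, where 10.7% and 12.7% of all genes were, at a median of -0.20. In epithelium against gland lymphocytes 25 were lower and 20 higher, at a median of -0.07, near the shares of 36.9% and 27.9% over all genes. Those shares are also the background of the epithelial counts of the lists that follow, and the B cell and CD4 T cell shares that of their gland against spleen counts.

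Ribosome biogenesis factors, which make and process ribosomal RNA and assemble the subunits, were lower in epithelium for 31 of 37 and higher for 2, at a median of -0.66. Nop56, a core protein of box C/D particles, was at -1.65 (adjusted p = 7.28e-10), the processing factor Rrp12 at -1.54 (adjusted p = 2.68e-06) and nucleolin, Ncl, at -1.25 (adjusted p = 9.7e-07). Between gland and spleen, 4 of the 37 were lower and 3 higher in B cells, and 9 were lower and 0 higher in CD4 T cells. Of those, Nop2, an RNA methyltransferase, was at -0.52 for B and -0.72 for CD4 T cells.

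Translation factors whose messages also carry a TOP motif were lower in epithelium for 6 of 14 and higher for 0, at a median of -0.09. Among them Eif3h, a subunit of the initiation factor eIF3, was at -0.54 and the elongation factor Eef2 at -0.35. Between gland and spleen 0 of the 14 passed in B cells or in CD4 T cells (limma). Of 17 other initiation and elongation factors 5 were higher and 3 lower in epithelium. Fau, which encodes a 40S protein fused to a ubiquitin-like domain and lies outside the naming rule, was lower in epithelium, at -0.49 (adjusted p = 2.27e-07).

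Of 13 regulators of mTORC1 and of TOP messages, 4 were higher and 6 lower in epithelium. Eif4ebp1, the translational repressor that mTORC1 inactivates, was higher by 2.04 and Myc, which drives ribosome production, lower, at -1.91. Myc was higher in gland than spleen B cells by 1.65 (SE 0.33, limma adjusted p = 0.00275) and lower in gland than spleen CD4 T cells, at -1.21 (adjusted p = 0.0142). The difference between the cell types was -2.87 (adjusted p = 0.000733), where no ribosomal protein passed. Cdkn1a, the p53 target p21, was higher in gland by 1.48 in B cells (adjusted p = 0.0111) and by 4.07 in CD4 T cells (adjusted p = 6.55e-07). For Rps27l, also a p53 target, the differences in the same comparisons were -0.42 and -0.04, and the latter did not pass.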

How the data were processed

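The authors deposited log2 signals for 45141 probe sets on 17 arrays, made with Partek and RMA, per the submitters' processing notes. RNA was amplified and labelled with biotin, per the labels' protocols. All RIN scores were above 8 apart from those of 3 samples that could not be matched to arrays. Per the platform's annotation, 28898 probe sets named exactly 1 gene, 551 named several and 104 were controls. The brightest probe set of a gene on average stood for it, which gave 17097 genes and 70 members. Of the members' probe sets 35 had the suffix a, 16 x, 5 s and 14 none, and sets with s or x can also bind related transcripts. Of 84 RefSeq symbols that meet the rule, 14 were not analysed here.

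Means of the 5 groups were estimated over all arrays with limma 3.58.1 in R 4.3.3 (lmFit, eBayes), with Benjamini-Hochberg adjustment over all genes. A gene passed at an adjusted p under 0.05. Errors are standard errors of the model, or SD between arrays, and the number of arrays limits the precision. The fit was tested on simulated data, but the outcome is not given here. Figures were drawn with matplotlib 3.10.9.

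Genes were named by rule: the 5 largest passed differences each way per comparison, the paralogs and parents, the stalk proteins and members with set roles, the brightest, dimmest and most variable members, and up to 4 genes per partner list. Exceptions are the members nearest to no difference, members lost or turned by a setting, and members whose probe sets differ, which were chosen after their values were seen. Members and lists were chosen with earlier results of these data known. Replicate numbers were not used as pairs. Alternatives tried were a fold minimum, a filter on dim genes, other probe set rules, 3 scalings (array medians, quantile, genes of a level band set by the members), array weights, a trended and robust eBayes, a replicate block, only the arrays compared, leaving out each array and, chosen after seeing the data, centring on other genes at a level of at least 11.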

Additional observations from a re-analysis of the deposited data

Results flagged for a closer look

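Of 64 tests for a far sample, over 32 members in the 2 groups of 4 arrays, 2 singled out an array, and chance alone singles out about 1 in 20 groups. Rps19, the 40S protein most often mutated in Diamond-Blackfan anaemia, was at a log2 level of 11.54 in gland CD4 T cell replicate 3, while the other 3 arrays of the group lay between 11.589 and 11.591. Rps9, a 40S protein of the decoding region, was at 11.75 in gland CD4 T cell replicate 2 and at 11.83 to 11.84 in the other 3. Both genes kept their lower call in epithelium when these arrays were left out.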

How the results depend on the processing

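Counts of members that passed changed with the setting as follows. The shares of all genes moved with the scaling too, as given above for the larger counts. With a 2-fold minimum, 1 member (Rps27l) stayed higher in epithelium and 0 passed in any other comparison or direction. With arrays centred on their medians, 56 members were lower in gland CD4 T cells, the difference of the gland against spleen differences passed as lower for 2, gland B cells were higher than CD4 T cells for 19 and lower for 1, and epithelium was higher for 1. With centring on the 3183 genes of the level band, most of them dimmer than the members, epithelium was lower for 24 and higher for 12, gland B cells were higher for 2 and lower for 1, and spleen B cells were lower for 0. With centring on the 86 other genes at a level of at least 11, epithelium was lower for 39, gland B cells were higher for 2 and lower for 1, and spleen B cells were lower for 0. Quantile normalization gave 5 lower in gland CD4 T cells, 1 lower in gland B against CD4 T cells and 2 lower in spleen B cells.

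With probe sets averaged by gene, gland against spleen gave 1 higher and 5 lower in B cells and 1 higher and 6 lower in CD4 T cells. The difference of these differences was higher for 1, gland B cells were higher than CD4 T cells for 2 and epithelium was higher for 5. With probe sets free of x, s and a suffixes, which left 31 members, 2 were higher in gland B cells, 1 was higher in gland CD4 T cells and 1 was lower in their difference. On the same sets 1 was lower in gland B than CD4 T cells, 0 were lower in spleen B cells and 22 were lower in epithelium. With trend and robust settings 6 were lower in gland B cells, 12 in gland CD4 T cells, 2 in their difference and 3 in spleen B cells, and 4 were higher in gland B than CD4 T cells. Array weights gave 1 higher in gland B cells, 7 lower in gland CD4 T cells and 2 lower in spleen B cells. The filter on dim genes gave 5 lower in gland CD4 T cells and 0 higher in gland B against CD4 T cells. With only the arrays compared, 1 was higher and 0 were lower in spleen B cells.

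Signs turned for Rpl10 in epithelium with array medians (-0.15), Rpl22 with the mean of probe sets (0.14) and Rpl23 with centring on the level band (0.024). Among partner genes they turned for Eif2s2 in epithelium (-0.37 with the mean of probe sets and -1.19 without suffixes) and for Mrpl58 in gland B against CD4 T cells (0.014 without suffixes). Leaving out 1 array gave 0 to 1 higher and 1 to 3 lower in gland B cells, 0 higher and 1 to 3 lower in gland CD4 T cells, and 0 higher and 0 to 1 lower in their difference. It gave 1 higher and 1 to 2 lower in gland B against CD4 T cells, 0 higher and 0 to 1 lower in spleen, and 2 higher and 41 to 49 lower in epithelium.

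Whether the replicate numbers pair the samples is not known. Over 30 pairs of arrays with the same number, deviations from the group means correlated at -0.397 to 0.215, above 0.1 in 2 pairs. With 3 or 4 arrays in a group these values cannot decide it. With the replicate number as a block, 43 members were lower in epithelium, 3 in gland B cells, 2 in gland CD4 T cells and 0 in spleen B cells. The calls for Rps10 in gland CD4 T cells (adjusted p = 0.0614) and Rps16 in spleen (adjusted p = 0.0916) were lost there.

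Of 34 named member results, 19 kept their direction and side of the threshold under every alternative run. Of 145 named partner gene results, 105 did, 39 were lost under some alternative and 2 turned their sign under some alternative. Members lie near the upper end of the array's range, and dim members have no detection calls. The fit over all probe sets and the centring on the 86 genes were chosen after seeing the data.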
